A study of Mus musculus with 36 samples.

Results

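The unfolded protein response genes described here are 10 sensors, transcription factors and effectors: Ern1, Eif2ak3, Atf6, Xbp1, Atf4, Atf3, Ddit3, Trib3, Ppp1r15a and Asns. They were taken by gene symbol, with every probe set the platform assigns to them, which gave 26 probe sets of 45037 tested and 10 genes of 18193 with a symbol. Xbp1 had 4 probe sets, Ern1 had 5, Atf4, Atf6 and Eif2ak3 had 3 each, Ddit3, Trib3 and Asns had 2 each, and Atf3 and Ppp1r15a had 1 each. RNA of whole brain and of liver came from male inbred mice aged 12 to 13 weeks: C57BL/6J, AKR/J or DBA/2J. Sleep was prevented for the first 6 h of the light phase in the sleep-deprived mice of each strain, while controls stayed in the home cage. Killing was at Zeitgeber time (ZT) 6 in both. The 36 Affymetrix arrays formed 12 groups of 3, and each array carried RNA pooled from 3 mice, so replicate spread is that between pools. In each tissue, AKR/J control arrays 2 and 3 carry conflicting times, ZT 0 in the source name against ZT 6 in the title; they were kept as controls.

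The unfolded protein response is the reaction of a cell to unfolded protein in the endoplasmic reticulum (ER). IRE1, encoded by Ern1, cuts Xbp1 mRNA so that it is spliced into the form encoding the active transcription factor. PERK, encoded by Eif2ak3, phosphorylates eIF2, which lowers general translation but favours translation of Atf4. ATF6 is cut in the Golgi and then enters the nucleus, where it induces chaperone genes and Xbp1. Much of this control acts on splicing, translation or protein cleavage, which these arrays of mRNA level do not measure. In bulk tissue, fewer cells of a type and less RNA per cell cannot be told apart.

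Values are log2 expression, differences are sleep-deprived minus control unless stated, ± after a difference is limma's standard error with n = 3 arrays per group, and ± after a group mean is the SD (n = 3). A probe set was called when limma's Benjamini-Hochberg adjusted p over all 45037 probe sets was under 0.05. Counts at an unadjusted p under 0.05 are given without the share over all probe sets and are not read as changes. Probe sets differ in brightness for technical reasons, so levels were compared only between groups on the same probe set and within a tissue. Where groups of 3 arrays are said not to overlap, this describes the arrays and is no test. The share of all probe sets without overlap is not given, so such cases are not read as changes that the test missed. Neuron markers averaged 10.63 to 10.94 on brain arrays and hepatocyte markers 13.68 to 14.03 on liver arrays, as the tissue labels imply. On 3 sleep-deprived brain arrays, 1 of each strain, the spread over probe sets was narrow (SD 1.90 to 1.96), and 2 brain controls and 1 liver control had a raised 3' to 5' difference of beta-actin (0.98 to 2.16), a sign of RNA quality. These are the arrays that stood apart, left out together as an alternative setting. All arrays picked for narrow spread were sleep-deprived, so in brain this setting is tied to condition.

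In brain, Xbp1 rose after sleep deprivation averaged over the 3 strains, and it was the member with the largest change. Within strains it passed the test in AKR/J and DBA/2J and not in C57BL/6J. In the mean over strains 3 of its 4 probe sets rose, by 0.80 ± 0.06 on 1420886_a_at (1.74-fold, limma adjusted p = 2.132e-06), 0.74 ± 0.07 on 1437223_s_at (1.67-fold, 2.941e-05) and 0.72 ± 0.09 on 1420011_s_at (1.64-fold, 2.734e-04). The other 23 probe sets were not called. The count was thus 3 of 26, all higher, against 1.73% of all probe sets called in this comparison and 0.688% called higher. All 3 read the same gene, so they are not 3 separate members. Taking each gene by its brightest probe set, 1 of 10 rose, against 0.951% of all genes. The median difference was 0.06 over the 26 probe sets and -0.00 over all. An unadjusted p under 0.05 was reached by 8 of the 26.

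On Xbp1 probe set 1420886_a_at, the AKR/J brain controls read 8.91, 8.69 and 8.92 and the sleep-deprived arrays 9.92, 9.91 and 9.94. The C57BL/6J controls read 9.12, 8.83 and 9.13 and the sleep-deprived arrays 9.44, 9.79 and 9.78. The DBA/2J controls read 9.10, 9.11 and 9.05 and the sleep-deprived arrays 9.84, 9.62 and 9.83. Sleep-deprived and control arrays did not overlap in any strain, and the lowest sleep-deprived value of all 9 lay above the highest of all 9 controls. On 1420011_s_at the groups were also apart in each strain, with C57BL/6J closest: 8.48 to 8.67 in controls and 8.74 to 9.33 after sleep deprivation. On 1437223_s_at the AKR/J arrays went from 8.81 to 9.12 in controls to 10.00 to 10.06, and the DBA/2J arrays from 9.13 to 9.32 to 9.75 to 10.05. In C57BL/6J the ranges on this probe set overlapped, at 9.13 to 9.47 and 9.45 to 9.89. The fourth probe set, 1420012_at, was dimmer (5.51 to 5.85 on brain arrays), and its mean difference of 0.10 was not called (adjusted p = 0.4032).

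**Figure D1:**
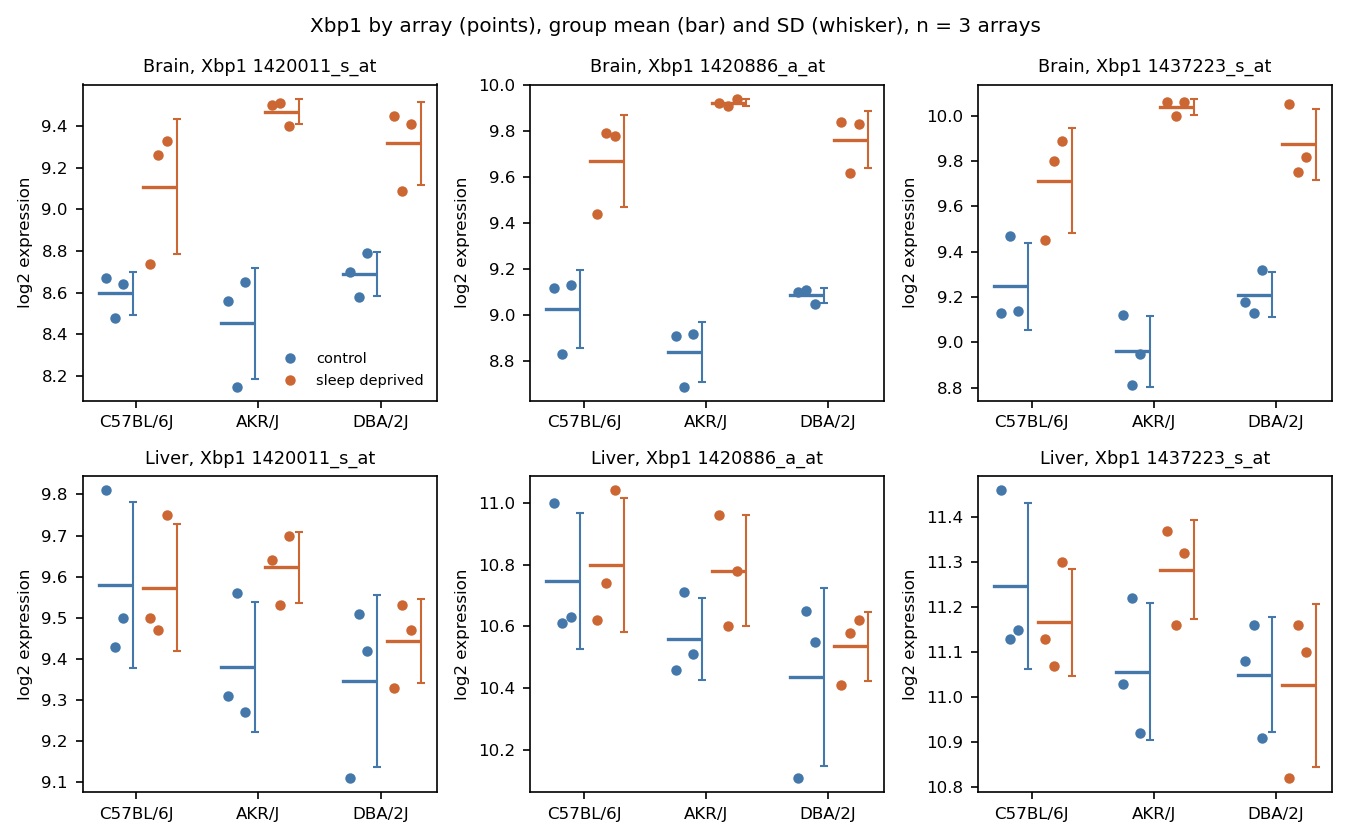
Xbp1 log2 expression on its 3 brightest probe sets, in brain (top) and liver (bottom), by strain; points are arrays, bars are group means and whiskers are SDs of 3 arrays. On 1420886_a_at in brain the sleep-deprived arrays sit at 9.44 and above and the controls at 9.13 and below, while the liver groups overlap in each strain.

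Within single strains, the AKR/J brain had the largest Xbp1 differences. In AKR/J the 3 probe sets rose by 1.08 ± 0.11 (1420886_a_at, limma adjusted p = 1.070e-04), 1.08 ± 0.13 (1437223_s_at, 4.779e-04) and 1.02 ± 0.15 (1420011_s_at, 0.0048), which made 3 of 26 called against 0.3% of all probe sets, or 0.193% called higher. In DBA/2J the differences were 0.67 ± 0.11 (adjusted p = 0.0172), 0.66 ± 0.13 (0.0653) and 0.62 ± 0.15 (0.1950) in the same order, so 1 of 26 was called against 0.104% of all, or 0.0711% called higher. In C57BL/6J they were 0.64 ± 0.11 (adjusted p = 0.0512), 0.47 ± 0.13 and 0.51 ± 0.15, and limma called 0 of 26 against 0.0377% of all, with 3 at an unadjusted p under 0.05. With the arrays that stood apart left out, 1420886_a_at passed in C57BL/6J (0.66, adjusted p = 0.0144) and 1437223_s_at in DBA/2J (0.78, 0.0073). Calls over all probe sets then went from 17 to 27 in C57BL/6J and from 47 to 174 in DBA/2J. The test of the difference between strains, the strain by sleep deprivation interaction, called 0 of 26 and 0 of all 45037 probe sets in brain, with 3 members at an unadjusted p under 0.05. A larger Xbp1 response in AKR/J was therefore not established.

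With the conflicting AKR/J controls left out, the AKR/J differences of Xbp1 were 1.02, 0.92 and 0.91 and the adjusted p-values 0.0505, 0.2021 and 0.3426. In DBA/2J the call on 1420886_a_at was lost when any of 5 of its 6 arrays was left out. In AKR/J brain, the mean of 6 pituitary hormone markers (Gh, Prl, Pomc, Cga, Tshb and Lhb) was 4.83 to 5.07 in controls and 6.41 to 7.49 after sleep deprivation. It was 6.88 to 8.01 against 4.55 to 8.16 in C57BL/6J and 6.96 to 9.19 against 7.49 to 8.47 in DBA/2J, which overlap. With AKR/J left out of the mean, Xbp1 rose by 0.66 on 1420886_a_at (adjusted p = 0.0068) and 0.56 on 1437223_s_at (0.0433), and the difference on 1420011_s_at was 0.57 (0.0648). The mean of 5 oligodendrocyte markers was 10.14 to 10.22 against 10.03 to 10.10 in AKR/J. In DBA/2J it was 10.14 to 10.27 against 9.89 to 10.11, both without overlap, and in C57BL/6J 10.27 to 10.36 against 9.88 to 10.32, with overlap. The part of these markers in the Xbp1 results was not tested.

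The sensors did not pass the test in brain. Ern1 differences lay between -0.09 and 0.16 over its 5 probe sets and Eif2ak3 differences between -0.12 and 0.15 over its 3. Atf6 differences lay between -0.01 and 0.07, but with the arrays that stood apart left out Atf6 1435444_at passed (0.19, adjusted p = 0.0371). In that setting calls over all probe sets went from 778 to 1866. On the brightest Eif2ak3 probe set, 1449278_at, control arrays read 7.04 to 7.20 and all brain arrays 6.65 to 7.39. The arrays at both ends of that range were sleep-deprived DBA/2J pools, so these pools spread more widely than the controls.

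Of the 23 probe sets not called in brain, Ddit3 1417516_at had the highest mean difference. Ddit3 encodes CHOP, a factor induced through ATF4 and linked to cell death under lasting ER stress. The AKR/J controls read 7.29, 7.28 and 7.30 and the sleep-deprived arrays 7.74, 7.67 and 7.61, with no overlap. In C57BL/6J the arrays read 7.13, 7.34 and 7.18 against 7.25, 7.24 and 7.29, and in DBA/2J 7.45, 7.30 and 7.41 against 7.57, 7.34 and 7.50, with overlap in both. The mean difference of 0.17 ± 0.05 was not called (adjusted p = 0.0932), nor was the 0.38 ± 0.08 in AKR/J (0.0747). With the arrays that stood apart left out, both passed (0.22, adjusted p = 0.0141, and 0.41, 0.0161). Calls over all probe sets also went from 778 to 1866 for the mean and from 135 to 603 in AKR/J. The mean was 0.06 with AKR/J left out (0.8769).

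Atf4, the translationally controlled factor downstream of PERK, differed by 0.11 ± 0.04 in brain on 1448135_at (adjusted p = 0.2540). The C57BL/6J arrays read 9.80, 9.71 and 9.76 in controls and 9.94, 9.84 and 9.90 after sleep deprivation, and the AKR/J arrays 9.50, 9.39 and 9.48 against 9.65, 9.59 and 9.60. Both strains were without overlap, whereas DBA/2J overlapped at 9.43 to 9.54 and 9.50 to 9.56. Atf3, a stress-induced repressor of the same family, read 3.47 to 4.15 on all brain arrays, and its difference was 0.06 ± 0.07. These values lay below the brain probe set median of 4.77, where a change is hard to see.

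The effectors did not pass the test in brain either. Ppp1r15a, which encodes GADD34, the phosphatase subunit that reverses eIF2 phosphorylation, differed by 0.01 ± 0.05. Trib3, a pseudokinase gene induced by ATF4 and CHOP, differed by -0.04 and -0.03. Its probe sets were dim, at 4.12 to 4.64 and 3.70 to 4.26, below the brain probe set median of 4.77. Asns, the asparagine synthetase gene and a classic ATF4 target, differed by -0.11 ± 0.04 on 1451095_at (adjusted p = 0.2819). Its AKR/J controls read 9.40 to 9.42 against 9.26 to 9.33 and its DBA/2J controls 9.32 to 9.37 against 9.07 to 9.26, both without overlap, while C57BL/6J overlapped.

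In liver, Xbp1 was not called and 2 other members were: Ern1 was higher and Atf4 lower after sleep deprivation, averaged over strains. Ern1 rose by 0.24 ± 0.05 on 1437119_at (1.18-fold, limma adjusted p = 0.0101). Atf4 fell by 0.27 on 1448135_at (SE 0.05, 1.20-fold, adjusted p = 0.0032). These made 2 of 26 against 3.6% of all probe sets, of which 2.4% were higher and 1.21% lower. The median was 0.03 over the 26 and -0.01 over all. An unadjusted p under 0.05 was reached by 8 of the 26.

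On Ern1 probe set 1437119_at, the C57BL/6J liver controls read 8.81, 8.74 and 8.93 and the sleep-deprived arrays 8.98, 9.14 and 9.22. The AKR/J arrays read 9.06, 9.15 and 9.01 against 9.36, 9.25 and 9.27. The DBA/2J arrays read 9.05, 8.98 and 9.08 against 9.29, 9.13 and 9.32. The groups did not overlap in any strain, and the differences in the same order were 0.29, 0.22 and 0.21. A second Ern1 probe set, 1421240_at, differed by 0.25 ± 0.08 but was not called (adjusted p = 0.0784), and the other 3 differed by -0.02 to 0.08.

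On Atf4 probe set 1448135_at, the AKR/J liver controls read 9.49, 9.57 and 9.51 and the sleep-deprived arrays 9.19, 9.19 and 9.14. The DBA/2J arrays read 9.49, 9.48 and 9.52 against 9.15, 9.23 and 9.28. The C57BL/6J arrays read 9.46, 9.18 and 9.34 against 9.04, 9.12 and 9.28. AKR/J and DBA/2J were without overlap, and in C57BL/6J control array 2 lay among the sleep-deprived arrays. Of the other Atf4 probe sets, 1438992_x_at differed by -0.33 ± 0.10 (adjusted p = 0.0685) and 1439258_at by -0.08. With AKR/J left out of the mean, neither call held: Atf4 differed by -0.23 (adjusted p = 0.1081) and Ern1 by 0.25 (0.0782).

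**Figure D2:**
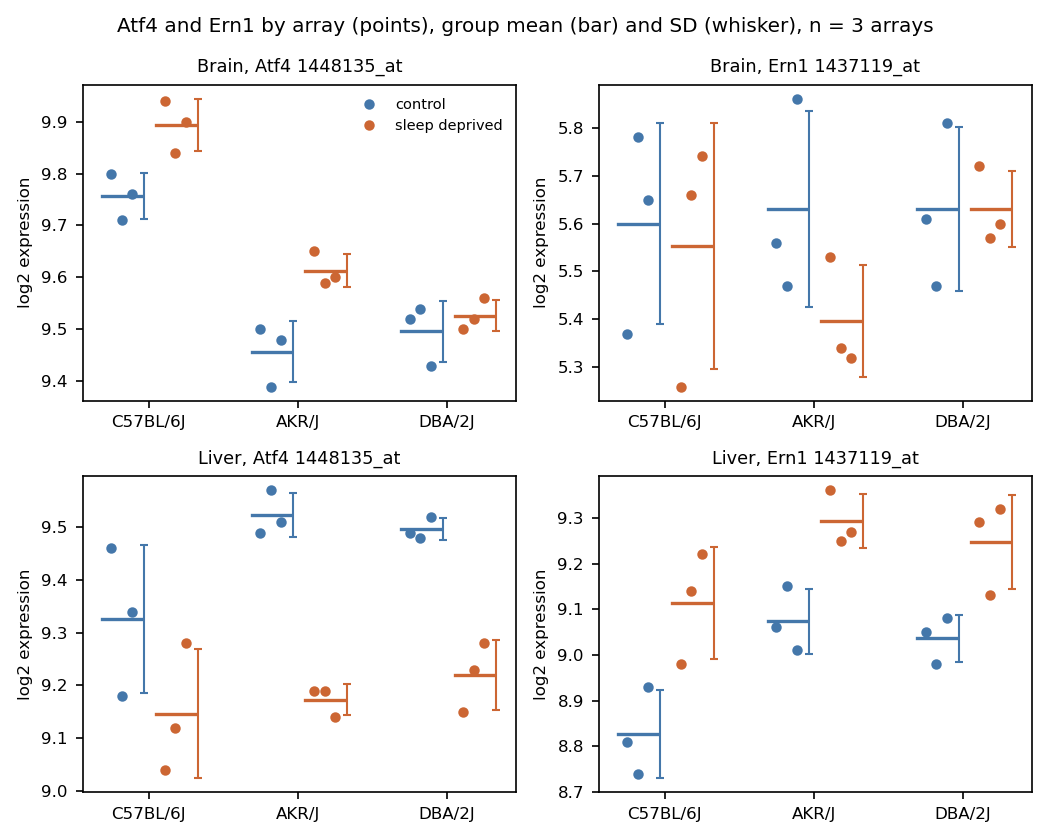
Log2 expression of Atf4 (1448135_at) and Ern1 (1437119_at) in brain and liver by strain; points are arrays, bars are group means and whiskers are SDs of 3 arrays. In liver the sleep-deprived Atf4 arrays of AKR/J and DBA/2J lie at 9.28 and below and their controls at 9.48 and above, and Ern1 is higher after sleep deprivation in each strain.

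In liver, the means of some cell type marker lists lay apart between conditions in some strains, and a few single markers were called. No marker list was tested as a whole. To set beside the counts below, 2.97% of all genes were called higher in liver and 1.91% lower. Of 9 hepatocyte markers limma called 1, Tat, a tyrosine aminotransferase gene, which rose by 0.83 ± 0.11 (adjusted p = 2.303e-04), and the median of the 9 was 0.01. Their mean was 13.83 to 13.90 in controls and 13.99 to 14.03 after sleep deprivation in C57BL/6J, 13.74 to 13.85 against 13.82 to 13.88 in AKR/J, and 13.68 to 13.78 against 13.83 to 13.88 in DBA/2J. The mean of 6 stellate cell and fibroblast markers was 7.49 to 7.73 against 7.88 to 7.92 in C57BL/6J and 7.52 to 7.68 against 7.80 to 8.14 in DBA/2J, without overlap, and 7.60 to 7.93 against 7.60 to 7.69 in AKR/J. Limma called 0 of these 6, with 4 at an unadjusted p under 0.05, all higher, and a median of 0.21. Of 5 endothelial markers 2 rose, Pecam1 by 0.42 ± 0.09 (adjusted p = 0.0132) and Tek by 0.36 ± 0.07 (0.0060), with a median of 0.05. The endothelial means were 5.80 to 5.91 against 5.83 to 5.98 in C57BL/6J, 5.44 to 5.81 against 5.81 to 6.01 in AKR/J and 5.82 to 6.02 against 5.90 to 6.11 in DBA/2J. The part of these markers in the Ern1 and Atf4 differences was not tested.

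No member passed the test within a single strain of liver. Limma called 0 of 26 in C57BL/6J against 0.615% of all probe sets, 0 in AKR/J against 0.711% and 0 in DBA/2J against 0.628%, with 6, 6 and 5 members at an unadjusted p under 0.05. The interaction called 0 of 26 against 0.0333% of all, with 2 members at an unadjusted p under 0.05.

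The remaining members in liver had small or scattered differences. Xbp1 differed by 0.13, 0.11 and 0.04 on its bright probe sets and by -0.02 on 1420012_at, and on 1437223_s_at the arrays of each strain overlapped within 10.82 to 11.46. Eif2ak3 differed by -0.03 to 0.02. The Atf6 probe sets differed by 0.12 to 0.14 (adjusted p 0.1951 to 0.4838). On Atf6 1435444_at the sleep-deprived arrays were higher without overlap in C57BL/6J (7.37 to 7.59 against 7.64 to 7.85) and DBA/2J (7.59 to 7.71 against 7.76 to 7.91) but not in AKR/J. Ddit3 differed by 0.20 ± 0.07 on 1417516_at (0.1162), Ppp1r15a by 0.15 ± 0.07 (0.2975) and Atf3 by 0.06 ± 0.06. Trib3 differed by -0.18 ± 0.12 on 1426065_a_at; in AKR/J its controls read 6.26, 6.47 and 6.31 and its sleep-deprived arrays 5.85, 5.94 and 5.42, a difference of -0.61 ± 0.21 that was not called (0.2608).

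**Figure D3:**
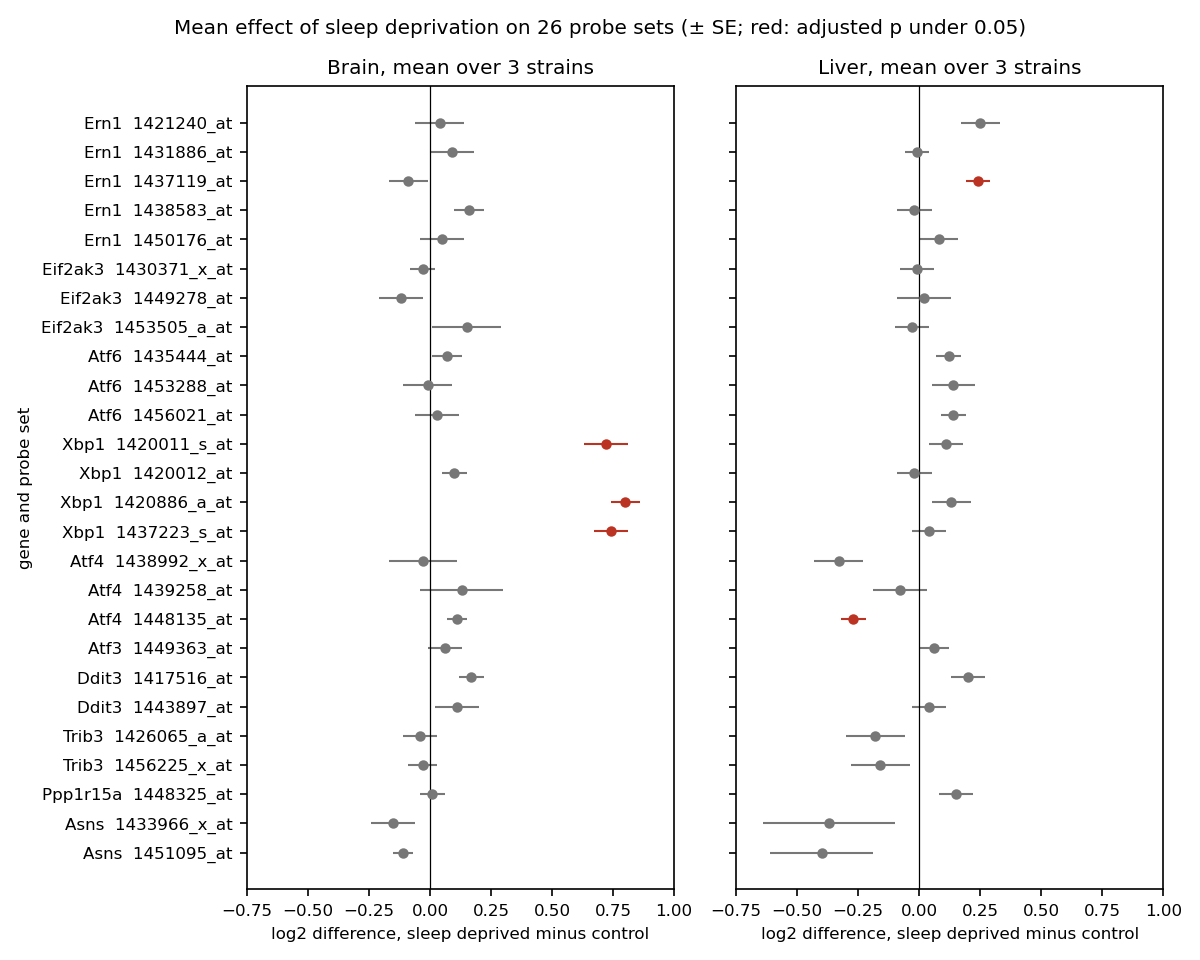
Mean effect of sleep deprivation over the 3 strains for all 26 probe sets in brain (left) and liver (right), as log2 difference ± SE; red marks an adjusted p under 0.05. In brain 3 Xbp1 probe sets stand at 0.72 to 0.80, and in liver Ern1 1437119_at stands at 0.24 and Atf4 1448135_at at -0.27.

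The response differed between the tissues for Xbp1 and Atf4. Liver minus brain differences of the mean effect were -0.70 ± 0.10 for Xbp1 on 1437223_s_at (limma adjusted p = 1.245e-04), -0.68 ± 0.11 on 1420886_a_at (4.966e-04) and -0.61 ± 0.12 on 1420011_s_at (0.0034), and -0.37 ± 0.06 for Atf4 on 1448135_at (3.595e-04). These made 4 of 26, all lower in liver, against 1.38% of all probe sets, or 0.366% lower. They came from 2 genes, since the Xbp1 probe sets are repeat readings of the same gene. Xbp1 rose in brain and did not pass the test in liver, whereas Atf4 fell in liver and did not pass in brain. The fit took brain and liver arrays as independent and did not account for mice that may have given both tissues. With AKR/J left out of the mean, the difference held for Xbp1 1437223_s_at (-0.61, adjusted p = 0.0348) and not for 1420886_a_at (-0.58, 0.0819), 1420011_s_at (-0.53, 0.1387) or Atf4 (-0.31, 0.1104).

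Among control mice, the largest strain differences of the members were in liver. Limma's F test over the 3 strains called 3 of 26, from 2 genes, against 8.54% of all probe sets. An unadjusted p under 0.05 was reached by 9. The called probe sets were both of Asns (adjusted p = 0.0045 on 1451095_at and 0.0214 on 1433966_x_at) and Ddit3 1417516_at (0.0065). Asns was higher in C57BL/6J than in the other strains, and Ddit3 was higher in DBA/2J than in AKR/J.

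On Asns 1451095_at, the C57BL/6J liver controls read 7.02, 5.69 and 7.36, the AKR/J controls 4.95, 4.81 and 6.26, and the DBA/2J controls 5.01, 4.88 and 4.57. C57BL/6J control array 2 was low and AKR/J control array 3 high for their groups, and these arrays overlapped between the strains. DBA/2J was lower than C57BL/6J by 3.66-fold (log2 difference -1.87 ± 0.36, adjusted p = 0.0028) and AKR/J by 2.55-fold (-1.35 ± 0.36, 0.0334). With the conflicting AKR/J controls left out, the AKR/J difference was -1.74 and did not pass (adjusted p = 0.0612). After sleep deprivation the C57BL/6J arrays read 6.65, 5.99 and 5.92, above all AKR/J (4.79, 5.04 and 4.60) and DBA/2J (4.72, 4.85 and 4.36) arrays. Over the 3 strains together the sleep deprivation difference of Asns was -0.40 ± 0.21 and was not called (0.3709). The dimmer 1433966_x_at gave -1.88 ± 0.47 for DBA/2J and -1.68 ± 0.47 for AKR/J against C57BL/6J. On this probe set the AKR/J call was lost without the conflicting controls (adjusted p = 0.2698) and the DBA/2J call without the arrays that stood apart (0.0687). Asns is abundant in pancreas. The mean of 8 pancreatic acinar markers was 4.93 to 5.12 in C57BL/6J controls, 4.96 to 5.10 in AKR/J controls and 5.02 to 5.16 in DBA/2J controls. Cela1, an elastase gene, stood above the other markers, at 8.25 to 10.36 over all liver arrays. The part of these markers in the Asns difference was not tested.

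On Ddit3 1417516_at, the liver controls read 5.48 to 5.65 in AKR/J, 5.76 to 5.89 in C57BL/6J and 6.02 to 6.26 in DBA/2J, in that order without overlap. DBA/2J exceeded AKR/J by 0.59 ± 0.12 (adjusted p = 0.0036), and the neighbouring pairs were not called (0.33 and -0.26 against C57BL/6J, adjusted p = 0.1161 and 0.2475). With the conflicting AKR/J controls left out, the difference of 0.59 had an adjusted p of 0.1236 and the F test 0.0805. The pairwise tests called 3 of 26 for AKR/J against C57BL/6J (5.09% of all probe sets), 3 for DBA/2J against C57BL/6J (5.57%) and 1 for DBA/2J against AKR/J (4.21%). Beyond Asns and Ddit3, Trib3 1426065_a_at was higher in DBA/2J than in C57BL/6J by 0.73 ± 0.21 (adjusted p = 0.0411), with controls at 6.38 to 6.75 and 5.46 to 6.25. The other Trib3 probe set differed by 0.70 (0.0569). Atf6 1456021_at was higher in AKR/J than in C57BL/6J by 0.35 ± 0.10 (0.0367), with controls at 6.78 to 6.97 and 6.37 to 6.56. Both the Trib3 and the Atf6 call were lost in 10 of 28 alternative settings.

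**Figure D4:**
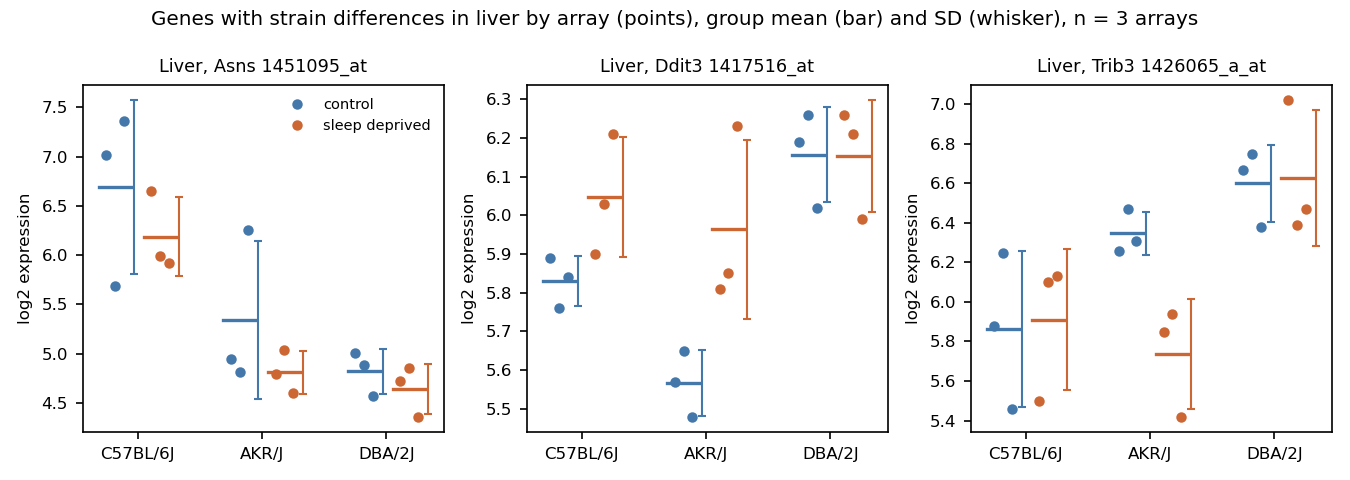
Log2 expression of Asns, Ddit3 and Trib3 in liver by strain; points are arrays, bars are group means and whiskers are SDs of 3 arrays. C57BL/6J has the highest Asns control mean at 6.69 and DBA/2J the lowest at 4.82, with AKR/J between at 5.34, and DBA/2J has the highest Ddit3 control mean at 6.16.

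Among brain controls the F test called 1 of 26 against 3.13% of all, Atf4 1448135_at (adjusted p = 0.0323). Its control means were 9.76 ± 0.04 in C57BL/6J, 9.50 ± 0.06 in DBA/2J and 9.46 ± 0.06 in AKR/J. AKR/J was lower than C57BL/6J by 0.30 (difference -0.30 ± 0.07, adjusted p = 0.0283), the DBA/2J difference of -0.26 was not called (0.0757), and DBA/2J and AKR/J overlapped. Limma's pairwise tests called 1 of 26 for AKR/J against C57BL/6J (2% of all probe sets), 0 for DBA/2J against C57BL/6J (1.9%) and 0 for DBA/2J against AKR/J (1.59%), with 4, 2 and 1 at an unadjusted p under 0.05. The F test was lost in 10 of 28 alternative settings, among them without the conflicting controls (0.2081).

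Genes known as targets of the members' factors were then counted, each by its brightest probe set. The lists were written with earlier results of these data known, so the counts describe these genes and are not an independent test. Among 10 ATF6 target genes of ER folding, 9 rose in brain, against 0.951% of all genes, with a median difference of 0.64 against -0.01 over all genes. They included Hspa5, the chaperone BiP that restrains the sensors (1.07 ± 0.05, limma adjusted p = 3.106e-09), Creld2 (0.96 ± 0.08, 2.132e-06), Sdf2l1 (0.95 ± 0.10, 5.177e-05) and Manf, a secreted ER stress protein (0.91 ± 0.08, 3.298e-06). In liver 5 of the 10 rose, against 2.97% of all genes, with a median of 0.26 against -0.02: Creld2 by 1.09 ± 0.07, Herpud1 by 0.49 ± 0.07, Hspa5 by 0.38 ± 0.06, Manf by 0.35 ± 0.08 and Hsp90b1 by 0.24 ± 0.07. At limma's unadjusted p under 0.05, all 10 were higher in liver, with a lowest difference of 0.12. Without C57BL/6J control 3, 8 of the 10 were called in liver, while calls over all probe sets went from 1622 to 1340. With AKR/J left out of the mean 2 of the 10 were called, and 783 of all probe sets. In that setting Manf differed by -0.03 and Hspa5 by 0.13 (adjusted p = 0.4509).

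In liver the sleep deprivation effects on Creld2 and Manf differed between strains. Creld2 differed by 2.33 in AKR/J, 0.58 in C57BL/6J and 0.34 in DBA/2J (interaction adjusted p = 1.077e-04), and Manf by 1.11, -0.05 and -0.02 (0.0337). The Manf interaction was lost in 12 of 28 alternative settings.

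Of 27 XBP1 target genes of secretion and ER degradation, 5 rose in brain, against 0.951% of all genes, and 22 were not called, with a median of 0.06. Those 5 were Pdia3 (0.61 ± 0.09), a disulphide isomerase, Dnajb11 (0.54 ± 0.07), a BiP cochaperone, and Derl2 (0.39), Derl3 (0.25) and Sel1l (0.20) of ER-associated degradation. Their number ranged from 1 with AKR/J left out to 12 with array quality weights. Calls over all probe sets were 85 and 3965 in those settings, against 778 as reported. In liver 2 of 27 (7.4%) rose, against 2.97% of all genes, a difference that rests on few genes and was not tested. They were Dnajb11 (0.30 ± 0.06) and Sel1l (0.21 ± 0.06). The list median was 0.04, and the count lay between 0 and 3 over the alternatives.

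ATF4 and CHOP target genes were mostly not called. Limma called 0 of 36 in brain, against 0.951% of all genes called higher and 1.6% called lower. The median was -0.04, 6 had an unadjusted p under 0.05, and at most 3 rose under an alternative setting. In liver 4 rose and 2 fell, against 2.97% and 1.91% of all genes, with a median of 0.02. Ddit4, an mTORC1 inhibitor gene, rose by 1.05 ± 0.15, Slc38a2, an amino acid transporter gene, by 0.38 ± 0.07, Jdp2 by 0.31 and Cebpg by 0.19. Slc1a4 fell by 0.29 and Mthfd2, of mitochondrial folate metabolism, fell by 0.24. Several calls in these lists depended on the setting. Those of Derl2, Derl3, Herpud1 and Sel1l in brain and of Jdp2, Cebpg, Mthfd2, Hsp90b1, Sel1l and Mapk8 in liver were each lost in at least 16 of 29 alternative settings.

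Partners of the sensors and their pathways were mostly not called. Among 16 PERK and eIF2 partners, 1 rose in brain, Dnajc3, the kinase inhibitor p58IPK (0.41 ± 0.05, adjusted p = 8.069e-05), and 1 fell, Eif2b3 (by 0.26, 0.0185), against 0.951% and 1.6% of all genes. In liver limma called 0 of these 16, against 2.97% of all genes higher and 1.91% lower, with 3 at an unadjusted p under 0.05. Of 9 IRE1 partners it called 0 in brain, with 2 at an unadjusted p under 0.05, while in liver Map3k5, the kinase ASK1, rose by 0.51 ± 0.08 (0.0011) and Mapk8, the kinase JNK1, fell by 0.21 (0.0416). Of 10 genes of ATF6 processing and the CREB3 family it called 0 in each tissue. In this list 3 in brain and 4 in liver had an unadjusted p under 0.05. For these lists too, the shares of all genes were 0.951% and 1.6% in brain and 2.97% and 1.91% in liver.

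**Figure D5:**
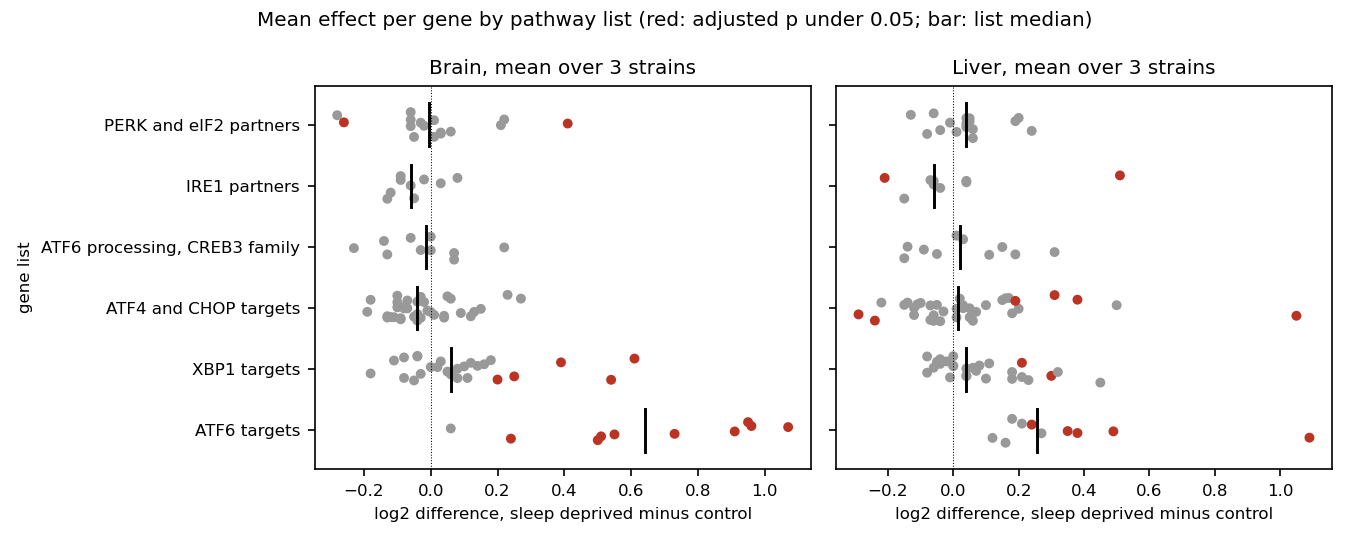
Mean effect of sleep deprivation per gene for 6 pathway lists in brain (left) and liver (right), as log2 difference; points are genes, red marks an adjusted p under 0.05 and bars are list medians. The ATF6 target genes have medians of 0.64 in brain and 0.26 in liver, and the other medians lie between -0.06 and 0.06.

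Promoter stretches are shown for each member whose promoter held a binding motif of these factors, and for Hspa5 and Creld2 as examples of a motif found among the ATF6 target genes. RefSeq promoters (GRCm38.p6) were given for 9 of the 10 members, and the 250 bases before the start were searched on both strands. The motifs were CARE, TGATGNAA, bound by ATF4 with C/EBP partners, CRE, TGACGTCA, ERSE, which is CCAAT and CCACG with any 9 bases between and is bound by ATF6 and XBP1 with NF-Y, and UPRE, TGACGTGG. ERSE and UPRE can share the bases CCACG. Of 32851 promoters, 3.45% held CARE, 1.55% CRE, 0.113% ERSE and 0.563% UPRE. Among the members, Atf3 and Asns held CARE and Ppp1r15a held CRE, and neither ERSE nor UPRE had a match in these windows, Xbp1 included. Each stretch is written 5′ to 3′ on the gene's strand, with the match in capitals; the Atf3 and Creld2 matches read on the opposite strand.
Asns, chr6:7693210-7693258, minus strand: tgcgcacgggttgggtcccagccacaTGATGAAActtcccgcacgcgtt
Atf3, chr1:191183410-191183469, minus strand: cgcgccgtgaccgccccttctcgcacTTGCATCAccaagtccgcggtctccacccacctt
Ppp1r15a, chr7:45526269-45526306, minus strand: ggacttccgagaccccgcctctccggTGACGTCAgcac
Hspa5, chr2:34772005-34772063, plus strand: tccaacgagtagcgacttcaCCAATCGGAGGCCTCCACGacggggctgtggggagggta
Creld2, chr15:88819500-88819558, plus strand: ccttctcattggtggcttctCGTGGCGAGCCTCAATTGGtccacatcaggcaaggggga
ERSE was found for 5 of 8 ATF6 target genes (Hspa5, Hsp90b1, Calr, Pdia6 and Creld2) and 2 of 21 XBP1 target genes. CARE was found for 10 of 30 ATF4 and CHOP target genes. A gene counted here if any of its promoters held the motif, whereas the shares above are of single promoters, so the measures are unlike. Motif and call did not go together throughout. Xbp1 rose in brain with no match of the 4 motifs in this window, and Calr and Pdia6 hold ERSE and were not called in liver. At limma's unadjusted p under 0.05 both were higher in liver, as were all 10 genes of their list. Their lack of a call is thus no sign that they did not respond. Asns and Atf3 hold CARE and were not called for sleep deprivation in either tissue. Of the 10 ATF4 and CHOP target genes with CARE, only Jdp2 was called in liver, where it rose. Its call depended on the setting, as given above. The other called genes of that list were not among those with a CARE match. A match is a run of letters and not a measured binding site.

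Genes whose pattern over the 18 arrays of a tissue was nearest to a member were found by the root mean square (RMS) difference of centred log2 values. For brain Xbp1, whose own RMS deviation was 0.41, they were Calr (0.15), Hsp90b1 (0.15) and Slc5a3 (0.16). Calr and Hsp90b1 encode ER chaperones and Slc5a3 an inositol transporter. For brain Ddit3 (0.17) they were Grasp (0.08), Rexo2 (0.09) and Dynll1 (0.09). For liver Asns (0.88) they were Sc5d (0.48), Stk25 (0.49) and Oat (0.51), and for liver Atf4 (0.16) they were Mettl11b (0.08), Mul1 (0.08) and Exoc7 (0.09). The distance of the nearest gene relative to the member's own deviation was thus smallest for brain Xbp1 among these 4.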

How the data were processed

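The deposited values are log2 expression made by the authors from Affymetrix mouse arrays. Per the submitters' processing notes they used RMA, of a version not given in the sources used here. The method compresses the changes of dim probe sets. Array medians were 4.74 to 4.86 in brain and 4.05 to 4.14 in liver, so the tissues appear to have been normalised apart. Arrays have no sequencing depth, and their number limits the precision. Probe sets were named from the platform annotation, updated through RefSeq; 64 control probe sets of 45101 were left out.

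Each tissue (18 arrays, 6 group means) was fitted with limma 3.58.1 in R 4.3.3, and liver minus brain over 36 arrays. Two-sided p-values were adjusted over 45037 probe sets (Benjamini-Hochberg). The fits were tested on simulated data. All member probe sets are named; of other lists, up to 4 called genes with the largest change per tissue and those called for the interaction, and for 2 members per tissue the 3 nearest genes. Derl3, Sel1l and Hsp90b1, where they make a count complete, were named after their values were seen. The members and lists were chosen with earlier results of these data known. Same-numbered arrays did not deviate together (correlations -0.42 to 0.41 in brain, -0.12 to 0.22 in liver), so the numbers were not taken as pairs.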

Additional observations from a re-analysis of the deposited data

Results flagged for a closer look

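The response to sleep deprivation differed between liver and brain for 4 probe sets by limma's test of the difference itself. For Xbp1 the liver minus brain difference was -0.61 on 1420011_s_at, -0.68 on 1420886_a_at and -0.70 on 1437223_s_at, and for Atf4 it was -0.37 on 1448135_at. In AKR/J, all sleep-deprived arrays lay above all controls for Atf4 1448135_at in brain (0.16) and below them in liver (-0.35). That opposite direction within AKR/J was not tested.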

How the results depend on the processing

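Counts of called member probe sets (of 26) depended on the setting as follows. For the brain mean effect (3 as reported) array quality weights gave 7 and the arrays that stood apart left out gave 5. Single arrays left out gave 3 to 4. Over all probe sets the calls went from 778 to 3965 with array weights and to 1866 without the arrays that stood apart. For AKR/J brain (3) the conflicting AKR/J controls left out gave 0 and single arrays left out 3 to 4. Calls over all probe sets fell from 135 to 7 without the conflicting controls. For C57BL/6J brain (0) quantile normalisation, limma-trend and dim probe sets left out gave 1 each. Array weights gave 3, the arrays that stood apart left out 2 and single arrays left out 0 to 1. In that order, up to the arrays that stood apart, calls over all probe sets were 45, 20, 22, 774 and 27, against 17 as reported. For DBA/2J brain (1) quantile normalisation, array weights and the arrays that stood apart left out gave 3 each. Limma-trend, dim probe sets left out and all 36 arrays together gave 2 each, and single arrays left out 0 to 2. Up to all 36 arrays together, calls over all probe sets were 127, 559, 174, 53, 63 and 102 in this order, against 47 as reported. For brain controls (1) array weights gave 2, the conflicting controls left out 0 and the replicate block 0. Single arrays left out gave 0 to 1. Over all probe sets 1411 were called as reported, 4744 with array weights, 776 without the conflicting controls and 1283 with the block. For the liver mean effect (2) AKR/J left out gave 0. Single arrays left out gave 2 to 4, with 4 without DBA/2J control 3. Calls over all probe sets were 1622 as reported, 783 without AKR/J and 1638 without DBA/2J control 3. For AKR/J liver (0) dim probe sets left out gave 1 and all 36 arrays together 2. Over all probe sets the calls were 392 and 474, against 320 as reported. For liver controls (3) array weights and all 36 arrays together gave 5 each and single arrays left out 2 to 4. Calls over all probe sets were 3990 with array weights and 4164 with all 36 arrays together, against 3847 as reported. For liver minus brain (4) AKR/J left out gave 1 and single arrays left out 4 to 5. Calls over all probe sets fell from 623 to 202 without AKR/J. Both interactions and the C57BL/6J and DBA/2J liver effects stayed at 0 in each setting run. The replicate block changed no other of these counts by over 1.5 times. The liver mean effect of Manf was 0.35 as reported and -0.03 with AKR/J left out. This follows from the strain effects given above, where Manf was higher after sleep deprivation in AKR/J and slightly lower in the other strains. The cause of that strain difference was not tested. Dim probe sets and 3 arrays per group limit what could be called.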
